A study of Rattus norvegicus with 16 samples.

Results

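The 10 genes described here encode Nrf2 (gene Nfe2l2), its relatives Nfe2l1 and Nfe2l3, the small Maf proteins Maff, Mafg and Mafk that pair with them, the repressors Bach1 and Bach2, and the regulators of Nrf2 stability Keap1 and Sqstm1. They were chosen by gene symbol for these roles, and each of the 10 was found among the 32623 genes counted. Nrf2 and its cap'n'collar (CNC) relatives bind antioxidant response elements as dimers with a small Maf protein, and Bach1 and Bach2 take the same partners to repress genes at such elements. Keap1 holds Nrf2 in the cytosol and delivers it to a cullin ubiquitin ligase for degradation until oxidants or electrophiles modify it, and the autophagy receptor Sqstm1 can displace Nrf2 from Keap1. In the kidney, Nrf2 is known for protecting tubule cells from oxidative injury.

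The study asked how an acid medium acts on gene expression in rat kidney epithelial cells and fibroblasts that share their medium. NRK-52E, a rat kidney epithelial line that resembles proximal tubule, grew on a permeable filter insert above NRK-49F, a rat kidney fibroblast line, so all 4 groups come from co-culture. After 24 h without serum, the co-cultures were held for 48 h at pH 7.4 (control) or pH 6.0 (acidosis); the sample titles shorten these values to 7 and 6. Poly(A)-enriched RNA of each line was sequenced separately in 4 libraries per line and pH. NRK-52E libraries are N1, N2, N5 and N6 at pH 7.4 and N3, N4, N7 and N8 at pH 6.0, and NRK-49F libraries are N9, N10, N13 and N14 at pH 7.4 and N11, N12, N15 and N16 at pH 6.0; values of single libraries are given in this sequence. The labels do not say whether libraries of a group came from separate cultures, so p-values measure the spread between these libraries, which may be technical. They also do not say which libraries of the lines shared a co-culture, and comparisons between the lines treat all libraries as independent. Library totals lay between 16201084 and 34784862 counted fragments. Expression is given in FPM, the CPM values that edgeR computes from fragment counts with TMM normalization over the 16 libraries.

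The libraries N8 (NRK-52E, pH 6.0) and N13 (NRK-49F, pH 7.4) stood apart from their groups. Across 9754 genes with a mean of at least 10 FPM, whatever their name, the root mean square log2 deviation from the mean of the other libraries of the group was 0.485 for N8 and 0.343 for N13, against 0.124 to 0.311 for the other 14. Their deviations ran alike across these genes (Pearson's r = 0.665, a description, since genes are not independent). Ribosomal protein genes, 73 in number, took 7.98% of the counts of N8 and 9.12% of those of N13, the highest share in each group. N3 was close to N8, at 7.49%. This share also moved with pH in NRK-52E, from a range of 3.98% to 5.56% at pH 7.4 to one of 5.44% to 7.98% at pH 6.0. In NRK-49F the ranges were 7.05% to 9.12% and 6.36% to 7.79%. Of the 10 genes, Mafg, Bach1, Bach2 and Nfe2l1 were lowest in N8 relative to its group, at 0.265, 0.315, 0.343 and 0.424 times the mean of N3, N4 and N7. In N13, Bach1, Nfe2l1 and Mafg stood at 0.47, 0.494 and 0.512 times the mean of N9, N10 and N14. Results that rest on these libraries are therefore also given with both left out, an alternative chosen after seeing the data. What sets them apart was not tested. Library names in the count table also carry another number of unknown meaning, 21 for N1 to N4 and 22 for N5 to N8, 20 for N9 to N12 and 21 for N13 to N16, which splits each group in pairs.

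Single markers differed strongly between the lines, but abundant genes of both lists went against the line names at pH 7.4, and few of the genes that usually define epithelium were expressed. Of 18 epithelial markers, Krt8 was the most abundant in each library, and the summed level had a median of 536 FPM in NRK-52E at pH 7.4, 377 at pH 6.0, 837 in NRK-49F at pH 7.4 and 208 at pH 6.0. Krt8 itself was higher in the fibroblast line at pH 7.4, at 848 ± 70.4 FPM (SD, n = 4) against 430.4 ± 32.0 FPM in NRK-52E. Ocln, a tight junction gene, stood at 41.2 ± 2.04 FPM in NRK-52E at pH 7.4 and at 0 in NRK-49F at pH 7.4, and Krt7 at 36.7 ± 4.69 against 0.463 ± 0.338 FPM. Cdh1 reached no more than 45 counts in any library, Epcam no more than 2, and Esrp1 was at 0 in all 16. Of 16 fibroblast markers, Pdgfra stood at 392 ± 54.7 FPM in NRK-49F at pH 7.4 and at 0.286 ± 0.11 FPM in NRK-52E, and Col1a1 at 6205 ± 409.7 and 23.6 ± 3.84 FPM. Col3a1, the most abundant gene of the fibroblast list in NRK-52E, went the other way, at 6221 ± 95.0 FPM in NRK-52E and 458 ± 103 FPM in NRK-49F at pH 7.4, and Col5a1 was similar (369 ± 37.5 and 341 ± 110.4 FPM). The summed list had medians of 6774 and 3108 FPM in NRK-52E at pH 7.4 and 6.0 and of 10190.0 and 10249 FPM in NRK-49F. Of 8 genes of immune and endothelial cells, Ptprc and Kdr were at 0 in all libraries, Cd68 led in NRK-49F (81.2 ± 16.4 FPM at pH 7.4 and 243 ± 20.2 at pH 6.0) and Tek in NRK-52E (41.1 ± 4.14 and 7.02 ± 0.971). Summed levels of this list had medians of 44.98 and 10.8 FPM in NRK-52E and of 83.3 and 242 FPM in NRK-49F, at pH 7.4 and 6.0. The part of these markers in the results was not tested. According to the authors, filter pores too small for cells kept the lines apart. Filters were rinsed and checked before each line was harvested on its own. The authors still allow a very small possibility of some fibroblasts sticking to the filter's underside, which they consider unlikely to alter the results. In bulk RNA, fewer cells of a type and less RNA per cell cannot be told apart.

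A gene was called when its false discovery rate (FDR) was below 0.01 in both edgeR and DESeq2 with the same sign. In NRK-52E cells, 4 of the 10 genes were called with acidosis and all 4 rose: Nfe2l2, Maff, Mafk and Sqstm1. Among all 13735 genes tested in that line, 56.7% were called, 28.2% higher and 28.5% lower at pH 6.0. In NRK-49F cells, 9 of the 10 passed the low-count filter of edgeR and 5 were called: Bach1, Maff and Mafg rose, and Nfe2l2 and Mafk fell. There 37.8% of 13339 genes were called, 18.4% higher and 19.4% lower. Under scaling by library totals, the all-gene median in NRK-52E went to -0.21 on the log2 scale and the share of higher genes among those called from 49.7% to 37.6%. Relative to that median, Nfe2l2 stood at 0.91, Maff at 2.54, Mafk at 0.93 and Sqstm1 at 1.73. With so broad a response and 10 genes, the counts describe these genes and do not set them apart from the rest. No member was called lower in NRK-52E: edgeR gave 0 at an unadjusted p below 0.05, and DESeq2 alone gave 0. With N8 and N13 left out, 7 of 10 were called in NRK-52E, where Nfe2l1, Bach1 and Mafg joined, and 64% of all genes; in NRK-49F 4 were called, where Nfe2l2 dropped out, and 36.8% of all genes.

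**Figure D1:**
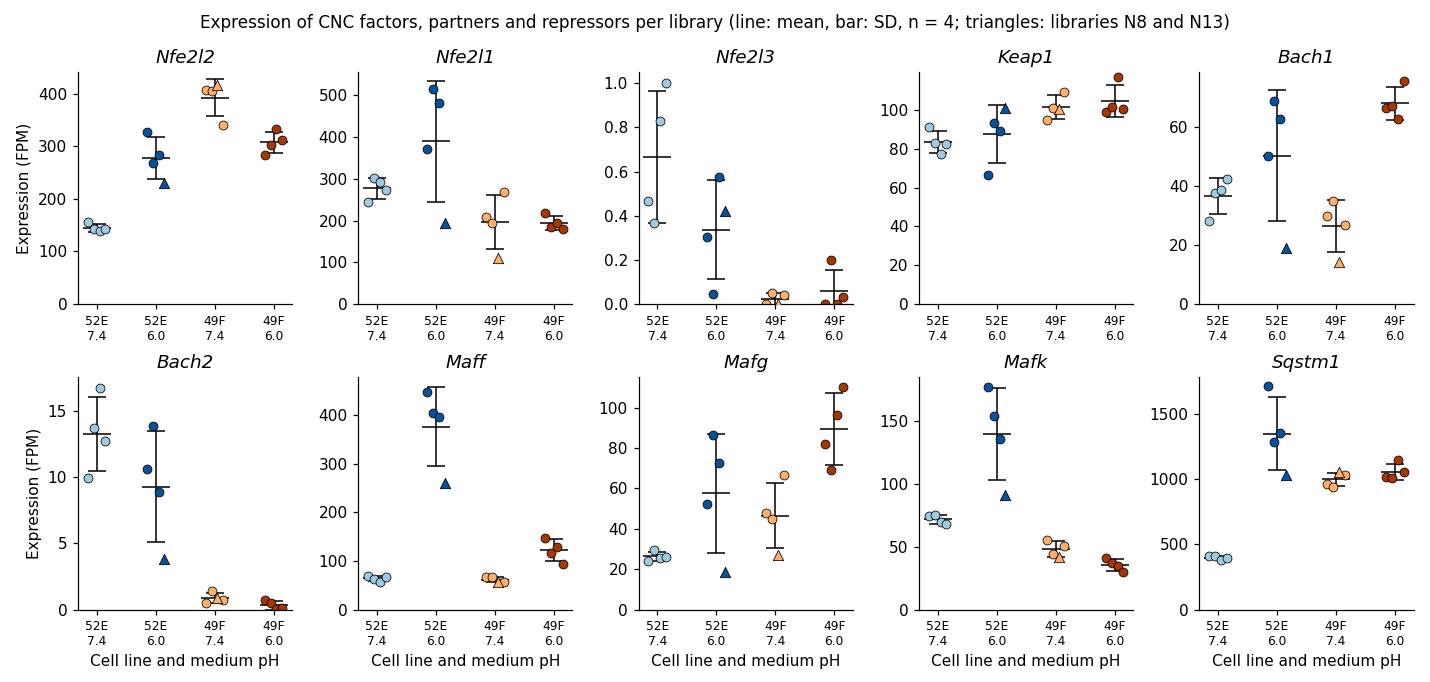
Expression of the 10 genes in each library (FPM on linear axes from 0, 4 libraries per cell line and medium pH), with group means and SD as bars and the libraries N8 and N13 as triangles. Maff and Mafk are highest in NRK-52E at pH 6.0, Sqstm1 and Nfe2l2 are lowest in NRK-52E at pH 7.4, and Nfe2l3 stays at or below 1 FPM in all libraries.

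Nfe2l2 (ENSRNOG00000001548, chromosome 3 of the rat genome rn6) encodes Nrf2, the activator of antioxidant and detoxification genes. In NRK-52E cells it stood at 156, 144, 139 and 142 FPM at pH 7.4 and at 328, 268, 283 and 230.3 FPM at pH 6.0. Each acidosis library, N8 included, lay above each control library, and N8 was the lowest of them. The rise was 1.89-fold (log2 fold change 0.91, SE 0.11, edgeR FDR 2.43e-05), and 0.99 on the log2 scale without N8 and N13. Nfe2l2 was called in this line in all 20 alternatives, with edgeR FDRs up to 0.00811, also within number 21 (log2 fold change 0.95) and within number 22 (0.85). In NRK-49F cells the values were 407, 405, 417 and 339.9 FPM at pH 7.4 and 283, 303, 332 and 312 FPM at pH 6.0. The groups did not overlap there either, but in the other direction, and N14 lay close to the highest acidosis library. The fall was small (log2 fold change -0.37, SE 0.10, edgeR FDR 0.00754), and it was called in 9 of 20 alternatives. Its call hung on single libraries: it was called in 1 of 8 fits that left out a library, the one without N14. With all libraries kept, it was also lost by library totals (-0.32, edgeR FDR 0.0102) and with no low-count filter (-0.35, edgeR FDR 0.0118). The edgeR FDR lay between 0.00149 and 0.328 over the 20 alternatives, and the log2 fold change was -0.47 within number 20 and -0.25 within number 21. Across the groups, Nfe2l2 was highest in NRK-49F at pH 7.4, lowest in NRK-52E at pH 7.4, and overlapped between the lines at pH 6.0.

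Nfe2l1 (ENSRNOG00000008830, chromosome 10) encodes Nrf1, a CNC factor held in the endoplasmic reticulum membrane that drives proteasome genes once it is cleaved and released. Its NRK-52E values were 245, 301, 292 and 274 FPM at pH 7.4 and 371, 516, 481 and 193 FPM at pH 6.0. N3, N4 and N7 lay above all control libraries and N8 lay below them, so the groups overlapped. The log2 fold change was 0.46 (SE 0.24, edgeR FDR 0.104, not called), and without N8 it was 0.68 (edgeR FDR 0.000303, called), with an FDR range of 0.000303 to 0.66 over the alternatives. NRK-49F had 209.8, 195, 111 and 268 FPM at pH 7.4 and 218, 184, 194 and 180.2 FPM at pH 6.0. The acidosis libraries fell inside the wider range of the controls, which N13 and N14 spanned, and the log2 fold change of -0.02 (SE 0.20) was not called. Nfe2l3 (ENSRNOG00000010886, chromosome 4), a further CNC relative also tied to proteasome genes, was close to the detection limit. It had 10, 9, 20 and 21 counts in NRK-52E at pH 7.4 and 5, 1, 14 and 9 at pH 6.0, and 0 to 3 counts per library in NRK-49F. Its log2 fold change in NRK-52E was -0.97 with an SE of 0.56 and an edgeR FDR of 0.141, and it was not called. In NRK-49F it did not pass the low-count filter.

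Keap1 (ENSRNOG00000020878, chromosome 8), the adaptor that presents Nrf2 to its ubiquitin ligase, varied little. It stood at 91.3, 82.9, 77.1 and 82.4 FPM in NRK-52E at pH 7.4 and at 66.4, 93.4, 88.9 and 101 FPM at pH 6.0. The acidosis libraries were spread wider than the controls, with N3 below and N4 and N8 above all of them. In NRK-49F the values were 95.0, 101, 100.3 and 109.5 FPM at pH 7.4 and 99.2, 101, 117 and 101 FPM at pH 6.0. The groups overlapped in both lines, with log2 fold changes of 0.05 (SE 0.12, edgeR FDR 0.736) in NRK-52E and 0.03 (SE 0.09, edgeR FDR 0.808) in NRK-49F. The sign of the first turned with the scaling, to -0.15 by library totals. Relative to the median of all genes under that scaling Keap1 stood at 0.05, which undoes the shift and is no test of direction.

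Sqstm1 (ENSRNOG00000003147, chromosome 10) encodes the autophagy receptor that binds ubiquitinated cargo and competes with Nrf2 for Keap1, and it is itself a known Nrf2 target. NRK-52E cells had 408, 409.5, 378 and 399 FPM at pH 7.4 and 1713, 1286, 1351 and 1035 FPM at pH 6.0. The control libraries lay close together and far below each acidosis library, of which N8 was the lowest. Expression rose 3.33-fold (log2 fold change 1.74, SE 0.14, edgeR FDR 1.77e-06), was called in all 20 alternatives, and was 1.84 and 1.60 on the log2 scale within numbers 21 and 22. In NRK-49F cells, the values were 964, 942, 1052 and 1031.5 FPM at pH 7.4 and 1012, 1012, 1145 and 1056 FPM at pH 6.0. These groups overlapped, and the log2 fold change was 0.07 (SE 0.09, edgeR FDR 0.555, not called). Sqstm1 in NRK-52E was the lowest of the 4 groups at pH 7.4. At pH 6.0 it overlapped the NRK-49F groups through N8 alone, and N3, N4 and N7 lay above all NRK-49F libraries.

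Bach1 (ENSRNOG00000001582, chromosome 11) represses heme oxygenase and other genes at antioxidant response elements and leaves DNA when it binds heme. In NRK-49F cells it was at 29.8, 34.9, 14.4 and 27.0 FPM at pH 7.4 and at 66.7, 67.2, 62.8 and 75.8 FPM at pH 6.0. All acidosis libraries lay above all controls, and N13 was the lowest control. The rise was 2.54-fold (log2 fold change 1.34, SE 0.20, edgeR FDR 0.00016), was called in all 20 alternatives, and was 1.15 on the log2 scale without N13. The NRK-52E values were 28.1, 37.7, 38.6 and 42.3 FPM at pH 7.4 and 50.3, 69.0, 62.9 and 19.1 FPM at pH 6.0. Without N8 the acidosis libraries lay above the controls, and N8 lay below them. Bach1 was therefore not called in NRK-52E with all libraries (log2 fold change 0.43, SE 0.31, edgeR FDR 0.237) and was called without N8 (0.70, edgeR FDR 0.00118), within an FDR range of 0.00118 to 0.987 over the alternatives. The log2 fold change was 0.81 within number 21 and -0.01 within number 22, the number that holds N8.

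Bach2 (ENSRNOG00000006170, chromosome 5), the relative of Bach1 best known from lymphocytes, was found mainly in the epithelial line. Its levels were 9.93, 13.7, 16.7 and 12.7 FPM in NRK-52E at pH 7.4 and 10.6, 13.9, 8.85 and 3.81 FPM at pH 6.0. In NRK-49F it had 9, 27, 13 and 19 counts at pH 7.4 and 17, 7, 1 and 3 counts at pH 6.0. Within each line the groups overlapped, N8 being the lowest NRK-52E library and N15 and N16 the lowest in NRK-49F. Neither pH effect was called, at log2 fold changes of -0.54 (SE 0.32, edgeR FDR 0.149) in NRK-52E and -1.53 (SE 0.68, edgeR FDR 0.0746) in NRK-49F. In NRK-49F Bach2 was near the low-count filter and passed it mainly through the pH 7.4 libraries. No conclusion is drawn from the size of the NRK-49F value. Over single libraries left out, the NRK-52E value ran from -0.82 (without N4) to -0.29 (without N8). It was 0.00786 within number 21 and -1.24 within number 22. The NRK-49F value was -0.60 among libraries of number 20 and -3.57 among those of number 21. It was -2.49 to -1.07 when single libraries were left out, lowest without N11.

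The small Maf proteins lack an activation domain of their own and serve as DNA-binding partners of both the CNC activators and the Bach repressors. Maff (ENSRNOG00000012886, chromosome 7) stood at 69.9, 62.5, 57.2 and 66.3 FPM in NRK-52E at pH 7.4 and at 448, 404, 397 and 260.2 FPM at pH 6.0. The lowest acidosis library, N8, was still above the highest control by a wide margin. This was the largest change among the 10 genes in this line, 5.81-fold (log2 fold change 2.54, SE 0.15, edgeR FDR 3.15e-07), and its size exceeded that of 93.2% of all genes tested. In NRK-49F, Maff was at 66.5, 66.4, 56.9 and 56.7 FPM at pH 7.4 and at 148, 117, 128 and 94.2 FPM at pH 6.0. It rose there as well, with no overlap, 1.96-fold (log2 fold change 0.97, SE 0.13, edgeR FDR 7.56e-05). Maff was called in both lines in all 20 alternatives of each.

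Mafk (ENSRNOG00000001277, chromosome 12) moved in opposite directions in the lines. Its NRK-52E levels were 74.5, 74.9, 69.5 and 67.8 FPM at pH 7.4 and 177, 154, 135 and 91.3 FPM at pH 6.0, and its NRK-49F levels 55.3, 44.3, 41.8 and 50.7 and 40.8, 36.7, 34.5 and 29.5 FPM. None of the 4 groups overlapped with its neighbour in rank: NRK-52E at pH 6.0 was highest, followed by NRK-52E at pH 7.4, NRK-49F at pH 7.4 and NRK-49F at pH 6.0. The rise in NRK-52E was 1.92-fold (log2 fold change 0.94, SE 0.17, edgeR FDR 0.000466) and was called in 19 of 20 alternatives, the exception being number 22 alone (0.70, edgeR FDR 0.0352). The fall in NRK-49F (log2 fold change -0.46, SE 0.12, edgeR FDR 0.00845) was near the threshold. It was called in 9 of 20 alternatives, among them the fits without N11 and without N13, with edgeR FDRs from 0.00479 to 0.052 over all 20. The call was lost when N9, N10, N12, N14, N15 or N16 was left out. With all libraries kept, it was also lost by library totals (edgeR FDR 0.0217) and with at least 1 CPM in at least 4 libraries (edgeR FDR 0.011). It was lost too with all 16 libraries in one fit (edgeR FDR 0.0233), within number 20 (-0.35, edgeR FDR 0.0262) and within number 21 (-0.55, edgeR FDR 0.052).

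Mafg (ENSRNOG00000036697, chromosome 10) completed the partners. NRK-49F had 47.7, 44.7, 27.1 and 66.5 FPM at pH 7.4 and 82.3, 69.3, 96.4 and 110.5 FPM at pH 6.0. The highest control, N14, lay just below the lowest acidosis library, N12. Mafg rose 1.91-fold (log2 fold change 0.93, SE 0.21, edgeR FDR 0.00308), called in 18 of 20 alternatives and lost within number 21 (1.12, edgeR FDR 0.0244) and when all 16 libraries shared the estimate of spread (edgeR FDR 0.0209). In NRK-52E the values were 24.2, 29.5, 25.7 and 26.0 FPM at pH 7.4 and 52.3, 86.6, 72.8 and 18.7 FPM at pH 6.0. N3, N4 and N7 lay well above the controls, and N8 below them all. With N8 the log2 fold change was 1.10 (SE 0.34, edgeR FDR 0.015, DESeq2 FDR 0.00356, not called because the threshold was met in DESeq2 alone). Without N8 it was 1.39 (edgeR FDR 7.53e-06, called), in an FDR range of 7.53e-06 to 0.287 over the alternatives. With N8 kept in, it was also called with no low-count filter (edgeR FDR 0.00785) and with all 16 libraries in one fit (edgeR FDR 0.00542).

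**Figure D2:**
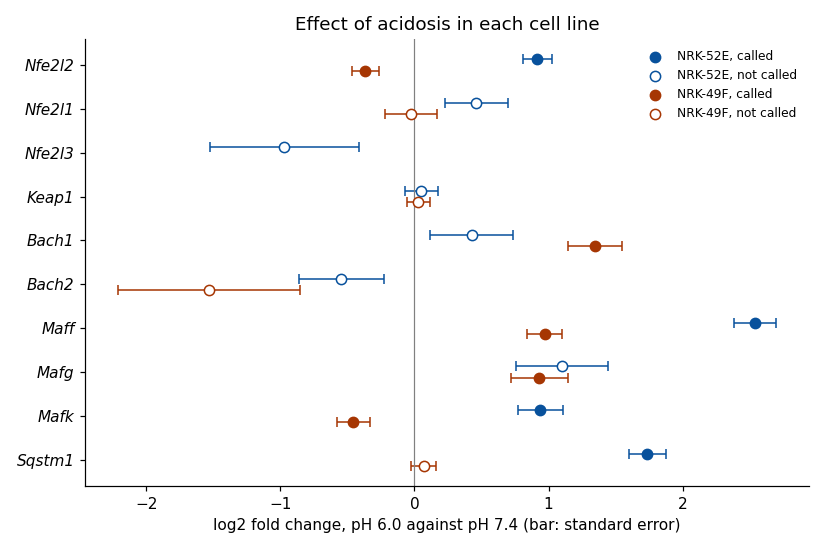
Log2 fold change of each gene between pH 6.0 and pH 7.4 in NRK-52E (blue) and NRK-49F (brown), with SE as bars and filled symbols for called genes. Nfe2l2 and Mafk lie above 0 in NRK-52E and below 0 in NRK-49F, Maff lies above 0 in both, and Nfe2l3 has a value in NRK-52E alone.

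Whether pH acted differently on the lines was tested as an interaction over all 16 libraries, the effect in NRK-52E minus that in NRK-49F. It was called for 4 of the 10 genes, against 36.9% of 14679 genes, and all 4 were more positive in NRK-52E. The differences were 1.27 for Nfe2l2 (SE 0.15, edgeR FDR 1.75e-06), 1.56 for Maff (SE 0.21, edgeR FDR 1.04e-05), 1.39 for Mafk (SE 0.22, edgeR FDR 5.56e-05) and 1.66 for Sqstm1 (SE 0.17, edgeR FDR 4.13e-07). These calls held in all 24 alternatives, the 16 fits that left out a library among them. For Bach1 the difference was -0.92 (SE 0.40, edgeR FDR 0.0651), the single negative one at an unadjusted p below 0.05 in edgeR; DESeq2 called 0 negative ones. So the call of Bach1 in NRK-49F and its lack in NRK-52E do not show that the effects differed. Without N8 and N13 the Bach1 difference was -0.45 (edgeR FDR 0.0574). A difference was not called for Mafg either (0.17, SE 0.44, edgeR FDR 0.79), which stood at 0.64 (edgeR FDR 0.0319) without these libraries. With them left out, Nfe2l1 was called as well (0.90, edgeR FDR 0.000362, against 0.48 and 0.249 with all libraries), and 39.2% of all genes. By library totals, the median of all genes in this contrast was -0.25, and 33.8% of the called genes were positive, against 52.4% with TMM.

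Between the lines at pH 7.4, 3 of the 10 genes were called higher in NRK-52E and 2 higher in NRK-49F, next to 27.9% and 31.9% of all 14679 genes. Bach2 was higher in NRK-52E (log2 difference 3.91, SE 0.48, edgeR FDR 7.25e-07), as were Mafk (0.58, SE 0.16, edgeR FDR 0.00309) and Nfe2l3. However, Nfe2l3 did not pass the low-count filter in NRK-49F and entered this fit only through NRK-52E, where it was higher. No conclusion is drawn from its call, and its counts are given as a description. For Nfe2l3, 60 counts in NRK-52E stood against 2 in NRK-49F, a ratio of 25.7 in FPM with an exact 95% interval of 6.8 to 217 that covers counting error only. Nfe2l2 (-1.43, SE 0.11, edgeR FDR 6.01e-10) and Sqstm1 (-1.32, SE 0.12, edgeR FDR 1.37e-08) were higher in NRK-49F. Mafk lost its call without N10 (edgeR FDR 0.0113) or without N13 (edgeR FDR 0.0123) and kept it without both N8 and N13 (0.51, edgeR FDR 0.000863). Mafg, not called with all libraries (-0.83, edgeR FDR 0.0273), was called higher in NRK-49F without N8 and N13 (-1.01, edgeR FDR 3.96e-05). With N13 kept in, Mafg was also called when only the 8 libraries at pH 7.4 were fitted (-0.74, edgeR FDR 0.00688). Scaling by library totals moved the median of all genes in this contrast to 0.34 and the share of called genes higher in NRK-52E from 46.7% to 65.9%. Relative to that median, Mafk stood at 0.63, Bach2 at 3.97, Nfe2l2 at -1.38 and Sqstm1 at -1.27. Taking off the median undoes the shift of the scaling, so these values are no test of direction. Nfe2l1, not called with TMM (0.50, edgeR FDR 0.0715), was called higher in NRK-52E by library totals (0.89, edgeR FDR 0.00471). It stood at 0.55 relative to the median.

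At pH 6.0, 5 of the 10 were called higher in NRK-52E and 0 higher in NRK-49F, next to 30.7% and 32.5% of all genes. In the latter direction edgeR had 2 at an unadjusted p below 0.05 (Keap1 and Mafg), and DESeq2 alone 0. Mafk (1.96, SE 0.16, edgeR FDR 2.5e-09), Maff (1.61, SE 0.15, edgeR FDR 1.74e-08) and Bach2 (4.93, SE 0.54, edgeR FDR 1.42e-07) differed without overlap. The Bach2 value ran from 4.46 to 5.89 when single libraries were left out, highest without N11. Nfe2l1 was called (0.99, SE 0.24, edgeR FDR 0.00133) although N8 lay within the NRK-49F range. Nfe2l3, at 29 against 4 counts (ratio 8.64, exact 95% interval 3.03 to 33.8), was called with all libraries, and its call was lost without N3, N7, N8, N11, N15 or N16. Here too it passed the low-count filter only through NRK-52E, so no conclusion is drawn from its call. N12 holds 3 of the 4 NRK-49F counts, and the log2 difference ran from 2.38 to 4.31 over single libraries left out, highest without N12. Nfe2l2, which differed between the lines at pH 7.4, was at -0.17 (SE 0.10, edgeR FDR 0.155) at pH 6.0, and its ranges overlapped. Sqstm1 was at 0.33 (edgeR FDR 0.0174, DESeq2 FDR 0.000982), not called, and was called without N8 and N13 (0.44, edgeR FDR 0.00112). With all libraries kept, Sqstm1 was also called with size factors of DESeq2 (0.41, edgeR FDR 0.00386) and by library totals (0.48, edgeR FDR 0.000508). By library totals, the log2 differences at pH 6.0 were 2.11 for Mafk, 1.76 for Maff, 5.08 for Bach2 and 1.14 for Nfe2l1. The median of all genes was 0.13 under that scaling, and relative to it these genes stood at 1.98, 1.63, 4.95 and 1.02. Here too, taking off the median undoes the shift, so the values relative to it are no test of direction. The line comparisons share libraries with the pH comparisons and are no separate support for them.

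Genes around these factors were taken from lists of known roles, some of which share genes; Srxn1, Pgd, Psma3 and Calcoco2, which are on them, were not analysed here. List counts are to be read beside the shares of all genes called, 28.2% higher and 28.5% lower in NRK-52E and 18.4% higher and 19.4% lower in NRK-49F, and no list was tested against them. The targets of Nrf2, 37 tested in each line, held 26 genes that rose and 4 that fell in NRK-52E (median log2 fold change 1.521) and 22 that rose and 2 that fell in NRK-49F (median 0.96). All genes tested had medians of 0.00136 (NRK-52E) and -0.0029 (NRK-49F). The largest rises in NRK-52E were those of Osgin1, a growth inhibitor induced by oxidative stress, from 7.39 ± 0.729 to 210.2 ± 58.2 FPM (log2 fold change 4.81, SE 0.22), and of the epoxide hydrolase Ephx1, from 29.8 ± 2.61 to 517 ± 61.9 FPM (log2 fold change 4.10, SE 0.12). The aldehyde dehydrogenase Aldh3a1 went against them, from 40.1 ± 4.53 to 1.6 ± 0.446 FPM (log2 fold change -4.68, SE 0.20), as did the cytochrome Cyp2s1, from 17.1 ± 0.688 to 5.56 ± 1.01 FPM (log2 fold change -1.63, SE 0.16). NRK-49F was led by the aldo-keto reductase Akr1b8, from 987 ± 72.0 to 7124 ± 842 FPM (log2 fold change 2.84, SE 0.12), and by transketolase, Tkt, from 409.9 ± 23.5 to 2454 ± 246 FPM (log2 fold change 2.57, SE 0.11). Cyp2s1 (log2 fold change -1.21) and Ephx1 (-0.77) fell there, so Ephx1 rose in one line and fell in the other. Without N8 and N13, 28 targets rose in the epithelial line and 24 in the fibroblasts.

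The ligases and degradation factors of Nrf2 showed 8 rises and 0 falls among 13 genes in NRK-52E (median 0.36) and 2 rises and 0 falls in NRK-49F (median 0.12). They were led by the kinases that mark Nrf2 for the other ligase route, Gsk3b (1.02, SE 0.24) and Gsk3a (0.79, SE 0.08), and in NRK-49F by Gsk3b (0.93, SE 0.13) and the ring protein Rbx1 (0.63, SE 0.12), given as log2 fold changes. Of 10 genes listed for competitors of Keap1 or proteins that bind it, 4 rose and 3 fell in NRK-52E (median 0.03). In NRK-49F 2 rose and 3 fell (median -0.01), and 3 and 3 without N8 and N13 (median -0.15). The cell cycle inhibitor gene Cdkn1a went from 29.1 ± 5.04 to 1411 ± 335 FPM (log2 fold change 5.58, SE 0.21) in NRK-52E and was followed by Sesn2 (2.89, SE 0.20), with Amer1 (-3.12, SE 0.31) and Dpp3 (-1.22, SE 0.12) at the other end. NRK-49F had Palb2 (1.37, SE 0.19) and Nbr1 (0.56, SE 0.09) as rises and Sesn1 (-0.62, SE 0.10) and Dpp3 (-0.54, SE 0.09) as falls. Among 19 kinases that phosphorylate Nrf2 or act upstream in its signalling, 5 rose and 3 fell in NRK-52E (median 0.22) and 6 rose and 3 fell in NRK-49F (median 0.22), where 56.7% and 37.8% of all genes were called. The NRK-52E counts were 9 and 5 without N8 and N13. The polo-like kinase gene Plk2 rose in NRK-52E, from 23.5 ± 3.18 to 228 ± 70.5 FPM (log2 fold change 3.26, SE 0.23), and fell in NRK-49F, from 65.7 ± 3.09 to 20.5 ± 2.93 FPM (log2 fold change -1.69, SE 0.11). Rises of Pik3ca (1.33, SE 0.10) in NRK-52E and of Pik3ca (1.07, SE 0.09) and Prkca (0.996, SE 0.14) in NRK-49F stood beside falls of Mapk3 (-1.04, SE 0.16) and Akt1 (-0.71, SE 0.11) in NRK-52E and of Mapk3 (-0.84, SE 0.08) in NRK-49F.

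Nfe2l1 protein is extracted from the membrane, deglycosylated and cleaved before it acts, and of 12 genes of this processing 8 rose and 1 fell in NRK-52E (median 0.57), against 2 and 2 in NRK-49F (median -0.00272). Without N8 and N13, 0 fell in NRK-52E and 1 rose in NRK-49F. The membrane extraction cofactor Nploc4 (1.003, SE 0.10) and the ubiquitin shuttle receptor Rad23b (0.88, SE 0.09) led in NRK-52E, where the sugar transferase Ogt (-0.28, SE 0.08) fell. In NRK-49F the protease Ddi2 (0.77, SE 0.08) and Nploc4 (0.34, SE 0.09) rose, and the deglycosylating enzyme Ngly1 (-0.56, SE 0.12) and Ufd1 (-0.50, SE 0.10) fell. Proteasome subunits, the known targets of Nfe2l1, rose in NRK-52E in 28 of 31 cases and fell in 1 (median 0.86), and in NRK-49F in 6 and 1 (median 0.05). The interaction was called for 22 of these 31 subunits, all more positive in NRK-52E, with a median of 0.85 against -0.01 for all genes. Of all 14679 genes, 36.9% were called in this contrast, and 52.4% of the called genes were more positive in NRK-52E. The lid subunit Psmd8 went from 89.8 ± 11.4 to 343 ± 46.4 FPM (log2 fold change 1.92, SE 0.12) and Psmd13 from 97.0 ± 8.24 to 253 ± 16.2 FPM (log2 fold change 1.37, SE 0.09) in NRK-52E, while Psmc3 fell in both lines (-0.59 and -0.59). In NRK-49F Psmd11 (0.64, SE 0.08) and Psma1 (0.56, SE 0.15) led. Without N8 and N13, 27 subunits rose in NRK-52E with a median of 0.80, so the count did not rest on N8, the library in which Nfe2l1 itself was low.

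Of 20 genes of heme handling or of the control of Bach1, 6 rose and 5 fell in NRK-52E (median 0.17), where 56.7% of all genes were called. In NRK-49F 3 rose and 2 fell (median 0.08), where 37.8% of all genes were called. Counts of the ferritin light chain gene Ftl1 may hold fragments shared with near-identical copies, which was not measured. Ftl1 went from 15.3 ± 2.51 to 132 ± 40.9 FPM (log2 fold change 3.09, SE 0.23) in NRK-52E and from 74.0 ± 18.3 to 145 ± 18.8 FPM (log2 fold change 0.96, SE 0.16) in NRK-49F. Without N8 and N13, 5 rose and 1 fell in NRK-49F. Biliverdin reductase Blvrb (2.33, SE 0.11) rose in NRK-52E and the heme transporter Slc48a1 (1.20, SE 0.08) in NRK-49F. The heme synthesis gene Uros fell in both lines at low levels, with 1 to 170 counts per library. It went from 6.16 ± 0.974 to 0.566 ± 0.439 FPM in NRK-52E (-3.41, SE 0.43) and from 4.98 ± 0.588 to 1.20 ± 0.303 FPM in NRK-49F (-2.07, SE 0.25). Fbxl17 (-1.02, SE 0.16), a ligase component for Bach1, fell in NRK-52E and Alad (-0.51, SE 0.14) in NRK-49F. Autophagy receptors and partners of Sqstm1 showed 9 rises and 1 fall among 18 in NRK-52E (median 0.30) and 2 rises and 4 falls among 17 in NRK-49F (median 0.00184). Without N8 and N13, 2 of them fell in the epithelial line and 6 in the fibroblasts. The ubiquitin-like partners Map1lc3a (1.15, SE 0.10) and Gabarapl1 (1.12, SE 0.09) led in NRK-52E, where Mtor (-0.44, SE 0.13) fell. In NRK-49F Gabarapl1 (0.56, SE 0.10) and Nbr1 (0.56, SE 0.09) rose, and Map1lc3b (-0.94, SE 0.09) and the lysosomal regulator Tfeb (-0.92, SE 0.13) fell.

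Of other genes of the CNC and Maf family, Nrl had 0 counts in all libraries, and Nfe2 averaged 0.0119 FPM in NRK-52E at pH 7.4 and 0 in the other groups. The large Maf gene Maf had 15 to 27 counts per library in NRK-52E at pH 7.4 and 0 in each library at pH 6.0. It was thus at least 5.87-fold lower at pH 6.0 against a floor of 3 counts per library. In NRK-52E Maf passed the low-count filter only through the pH 7.4 group, where it was higher, so no conclusion is drawn from this difference. In NRK-49F it fell from 27.5 ± 6.62 to 11.2 ± 1.12 FPM (log2 fold change -1.31, SE 0.17), and Mafa from 4.35 ± 1.33 to 1.87 ± 0.584 FPM (log2 fold change -1.25, SE 0.30). Mafa was not tested in NRK-52E (0.0989 ± 0.0427 and 0.0908 ± 0.105 FPM). For Maf in NRK-52E the log2 bound was -2.55, and the median of Maf and Mafa in NRK-49F was -1.28. AP-1 and ATF factors, which can dimerize with Maf or CNC proteins, gave 4 rises and 3 falls among 11 in NRK-52E (median 0.32) and 3 rises and 0 falls among 12 in NRK-49F (median 0.51). Atf3 went from 2.51 ± 0.878 to 64.5 ± 28.3 FPM (log2 fold change 4.66, SE 0.37) in NRK-52E, and Atf4 (1.86, SE 0.15) rose while Junb (-1.27, SE 0.12) and Fosl2 (-0.83, SE 0.17) fell. In NRK-49F the leaders were Atf3 (2.79, SE 0.27) and Fosl1 (2.08, SE 0.12).

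For the rest of the lists, the interaction is given as the numbers of genes called more positive and more negative in NRK-52E, beside 36.9% of all genes called in either direction. The Nrf2 targets had 14 and 9 of 38 (median 0.48), the Keap1 competitors and binding proteins 4 and 3 of 10 (median 0.23). The kinases had 3 and 3 of 20 (median -0.19) and the heme and Bach1 genes 6 and 4 of 20 (median 0.08). The AP-1 and ATF factors had 3 and 4 of 12 (median -0.59). The ligases had 4 and 0 of 13 (median 0.33), the genes of Nfe2l1 processing 6 and 0 of 12 (median 0.54) and the autophagy genes 10 and 1 of 18 (median 0.52). In the other CNC and Maf genes, 0 and 1 of 2 were called. Both, Maf and Mafa, were close to the detection limit in NRK-52E, so no conclusion is drawn from that call.

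Promoters of the 10 genes, 250 bases before to 50 after the start in the RefSeq table of build GRCr8, were searched on both strands for the core of the antioxidant response element, TGACNNNGC, and for the AP-1 motif, TGACTCA or TGAGTCA. The table held 12 promoters for the 10 symbols. The core was found in 2 of these 12 and in 12.1% of all 33469 promoters, and the AP-1 motif in 1 of 12 and in 4.63% of all. The matches of the core lay in Nfe2l2 and Mafk and that of the AP-1 motif in Bach1. They are shown with their neighbouring bases, motif in capitals. The Nfe2l2 match begins at position 39 after the start (chr3:81028950-81028971, minus strand), the Mafk match at position -41 (chr12:19959215-19959243, minus strand, motif read on the opposite strand), and the Bach1 match of the AP-1 motif at position 30 (chr11:40425740-40425766, plus strand).
Nfe2l2: gactagccatTGACGCCGCctc
Mafk: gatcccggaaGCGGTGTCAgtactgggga
Bach1: gcggagggagTGAGTCAcctgaccgcc
A match is a description of the letters, and binding at these places was not measured.

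The genes whose levels followed each member most closely over the 16 libraries were taken from 8928 genes with a mean of at least 10 FPM and a name other than a locus or clone identifier, by Pearson's r of log2(FPM + 1). The libraries fall into 4 groups that these values share, so r describes group patterns and carries no test. For Nfe2l2 they were Irf1 (0.983), Lmo4 (0.978) and Prnp (0.974), and for Sqstm1 Tap1 (0.987), Praf2 (0.984) and Phf1 (0.983). Maff was followed by Stbd1 (0.992), Slain2 (0.992) and Gtse1 (0.990), Mafk by Jak2 (0.979), Dusp8 (0.978) and Sh2b1 (0.978) and Mafg by Klf6 (0.936), Zcchc2 (0.924) and Zdhhc18 (0.916). For the repressors they were Nek7 (0.968), Dnm1l (0.958) and Larp4b (0.956) for Bach1 and Casz1 (0.980), Crim1 (0.977) and Rev3l (0.975) for Bach2. Nfe2l1 ran with Arhgef17 (0.981), Snx29 (0.977) and Nktr (0.970), and the low counts of Nfe2l3 with Prph (0.879), Usp31 (0.874) and Dctn6 (0.874). Keap1, the member with the smallest range, had Wdr18 (0.876), Smarcb1 (0.873) and Scfd2 (0.872). By library totals, 0 of the nearest 3 were kept for Keap1 and Mafk and 1 for Maff and Mafg, and with log2(FPM + 0.1) 0 for Bach2 and 1 for Nfe2l3.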

How the data were processed

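The deposited values are whole-number fragment counts per Ensembl gene in 16 libraries. The counts were made by the authors: per the labels, read pairs were mapped to rn6 with HISAT2 2.1.0, whereas the paper's methods name tophat2, and featureCounts was run with -p -M -t exon -g gene_id, so fragments with several places were counted at each.

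Differential expression was tested with edgeR (version 4.0.16, quasi-likelihood F test, TMM scaling, filterByExpr) and DESeq2 (version 1.42.0, Wald test), with Benjamini-Hochberg adjustment over all genes tested, in R 4.3.3. The pH comparisons were fitted on the 8 libraries of each line, and the interaction and line comparisons on all 16. SE is the absolute log2 fold change over the square root of F. Genes around the members were named by rule: in each list and line the called genes that rose most (2) and fell most (2), all genes of lists of 6 or fewer, the 3 genes most alike each member, and the markers. The members and lists were chosen with earlier results of these data known. A planned comparison of member proteins was not run. A gene that the rule also names is not reported here.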

Additional observations from a re-analysis of the deposited data

Results flagged for a closer look

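Within groups of 4 libraries, 38 sets of member levels were examined for a library far from the others, and 2 were found where 1.9 would be expected by chance. Nfe2l2 in N14 (NRK-49F, pH 7.4) was at 339.9 FPM, against 405 to 417 FPM in N9, N10 and N13. Keap1 in N15 (NRK-49F, pH 6.0) was at 117 FPM, against 99.2 to 101 FPM in N11, N12 and N16. The test of the difference between the lines picked out 4 genes, with log2 differences in pH effect of 1.27 for Nfe2l2, 1.56 for Maff, 1.39 for Mafk and 1.66 for Sqstm1. The causes were not tested.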

How the results depend on the processing

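Of 952 log2 fold changes of members under alternatives, 868 kept direction and side of the threshold. A call was lost in 34 and gained in 23, and 27 changed sign. None of these 27 belonged to a gene called in the same comparison with the main settings. Genes called with pH in NRK-52E numbered 7793 with all libraries, 5244 within number 21 and 2820 within number 22, which holds N8. In NRK-49F they numbered 5039, 4680 within number 20 and 1980 within number 21, which holds N13. Fits within a number hold 4 libraries each. Members called in NRK-52E were 3 within number 22, 7 with N8 and N13 left out and 4 to 7 when single libraries were left out. In NRK-49F they were 3 by library totals, 2 within number 21, 3 with all 16 libraries in one fit, and 3 to 4 when single libraries were left out. Log2 fold changes that changed sign in NRK-52E were Keap1 at -0.154 (library totals), -0.167 (number 21) and -0.0363 (N8 and N13 left out; -0.0363 to 0.155 over single libraries left out), Bach1 at -0.0114 (number 22) and Bach2 at 0.00786 (number 21). In NRK-49F they were Nfe2l1 at 0.00768 (library totals; -0.215 to 0.156 over single libraries) and Keap1 (-0.0178 to 0.0583 over single libraries). Keap1 was 0.105 between the lines at pH 7.4 by library totals. In the interaction, Keap1 was -0.00222 (size factors of DESeq2), -0.224 (library totals) and -0.0638 (N8 and N13 left out), and -0.0728 to 0.0599 over single libraries; Mafg was -0.0567 (library totals) and -0.0926 to 0.457. The cause was not tested. No paired analysis was possible because no replicate number occurs in more than 1 group. The other number in the library names, of unknown meaning, was instead fitted as a covariate, with 7551 genes called in NRK-52E and 5211 in NRK-49F.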
